A study of Rattus norvegicus with 144 samples.

Results

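Slc13a5 and Alpl are 2 genes of 9653 that were measured under a single gene symbol in the livers of acetaminophen-dosed rats. They were chosen on their 6 h values, since both stood well above vehicle 6 h after the toxic doses. Each was read by 1 probe, annotated to the RefSeq transcripts of rat Slc13a5 and Alpl, and the whole table held 18978 gene rows (one per symbol, and one per probe that lacks a single symbol). Acetaminophen is a painkiller whose overdose damages the liver. Male rats of the inbred F344/N strain, aged 10 to 12 weeks, received vehicle (0.5% ethyl cellulose) or acetaminophen at 150, 1500 or 2000 mg/kg by oral gavage, split into 2 doses, and the left liver lobe was taken at 3, 6 or 24 h. There were 12 groups of 6 rats, 72 rats in all, and all groups shared strain, sex, vehicle and route. Each rat's liver RNA was read on 2 dye-swapped arrays, with pooled RNA of 6 vehicle rats killed at that time in the other channel. The labels leave open if the pooled animals are those measured one by one. Values below are log2 ratios of a rat to the pool of its time, so a level at one time is relative to another pool than a level at another time. The log base (log10) and the direction (rat over pool) of the deposited values are assumed. At 24 h and 2000 mg/kg the stress genes Mt2A (metallothionein), Hmox1 (heme oxygenase) and Nqo1 (a quinone reductase) were higher than in vehicle by 3.93 ± 0.48, 2.43 ± 0.50 and 2.16 ± 0.16 (log2 difference ± SE). That is the basis for the direction, which is likely and not certain.

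Slc13a5 encodes the sodium-coupled citrate transporter of the plasma membrane, which in liver brings citrate from the blood into hepatocytes. Cytosolic citrate is cut by ATP citrate lyase to acetyl-CoA, the building block of fatty acids and cholesterol, and it also restrains glycolysis. The gene is known to respond to glucagon and cAMP in rat hepatocytes, and to xenobiotic receptors and interleukin-6 in human hepatocytes. Alpl encodes tissue-nonspecific alkaline phosphatase, an enzyme anchored on the outer face of the membrane, in liver mostly on the canalicular side, that removes phosphate from pyrophosphate and from the vitamin B6 form pyridoxal phosphate. Liver alkaline phosphatase is known for its rise in cholestasis.

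The promoters of both genes are shown because both genes stood high in the same groups. The sequences are those of RefSeq (build GRCr8), 250 bases before to 50 bases after the start site, on the strand of the gene. Capitals mark matches, on either strand, to 2 motifs that were found, the dioxin response element core, GCGTG, and the GC box, which reads GGGCGG. Slc13a5 lies at chr10:57388799-57389098 on the minus strand, with its start site inside the RefSeq gene model, and Alpl at chr5:155289736-155290035 on the minus strand, with its start site at the edge of the gene model.
Slc13a5: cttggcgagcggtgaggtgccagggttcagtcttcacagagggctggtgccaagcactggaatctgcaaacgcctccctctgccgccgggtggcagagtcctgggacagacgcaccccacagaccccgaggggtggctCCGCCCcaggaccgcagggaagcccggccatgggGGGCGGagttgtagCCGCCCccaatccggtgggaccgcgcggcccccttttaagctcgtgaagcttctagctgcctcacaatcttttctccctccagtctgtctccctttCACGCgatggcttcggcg
Alpl: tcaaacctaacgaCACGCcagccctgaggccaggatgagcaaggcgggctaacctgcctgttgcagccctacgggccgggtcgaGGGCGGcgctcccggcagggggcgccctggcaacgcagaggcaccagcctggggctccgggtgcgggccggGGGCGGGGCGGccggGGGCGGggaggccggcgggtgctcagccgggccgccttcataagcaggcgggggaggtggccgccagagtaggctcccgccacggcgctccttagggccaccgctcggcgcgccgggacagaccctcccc
The Slc13a5 window held 1 match to the dioxin response element core and 3 to the GC box, and the Alpl window held 1 and 4, of which 2 of the GC boxes overlap. Neither window held TGACG, which is part of the cAMP response element, or the STAT element TTCNNNGAA. Nor did either hold TGACNNNGC, the core of the antioxidant response element, or the TATA box TATAAA. Of 33469 promoters of this length, 29.7% held the dioxin response element core, 33.1% the GC box, 21.2% the part of the cAMP response element, 8.87% the STAT element, 12.1% the antioxidant core and 14.2% the TATA box, on either strand. GC content was 65.67% for Slc13a5 and 76.33% for Alpl, against a median of 51.67% over all promoters. These matches describe letters in a window and say nothing about binding.

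At 6 h, the time on which the genes were chosen, both were far above vehicle at the toxic doses. These values are a description without a test. Slc13a5 stood at 2.97, 1.83, 2.54, 3.11, 3.35 and 2.54 in the 6 rats of 2000 mg/kg, and between -0.62 and 0.57 in the vehicle rats. At 1500 mg/kg the rats stood at 1.96, 2.98, 2.20, 2.43, 0.24 and 3.43. Every rat of 2000 mg/kg lay above every vehicle rat, and at 1500 mg/kg 5 of 6 did. The difference from vehicle was 2.16 ± 0.44 at 1500 mg/kg and 2.67 ± 0.44 at 2000 mg/kg, or 4.47- and 6.38-fold.

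Alpl looked alike at 6 h. It stood at 2.30, 1.99, 2.04, 2.53, 2.71 and 2.62 in the rats of 2000 mg/kg and between -0.44 and 0.37 in the vehicle rats. At 1500 mg/kg it stood at 2.33, 2.48, 1.68, 2.83, 0.31 and 3.04. Again all rats of 2000 mg/kg and 5 of 6 rats of 1500 mg/kg lay above the highest vehicle rat, and the exception was the same animal for both genes, rat 7334. The difference from vehicle was 2.29 ± 0.35 at 1500 mg/kg and 2.54 ± 0.35 at 2000 mg/kg, or 4.89- and 5.82-fold. At 150 mg/kg the difference was -0.35 ± 0.44 for Slc13a5 and 0.11 ± 0.35 for Alpl, and no rat of that dose lay above the highest vehicle rat for either gene.

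**Figure D1:**
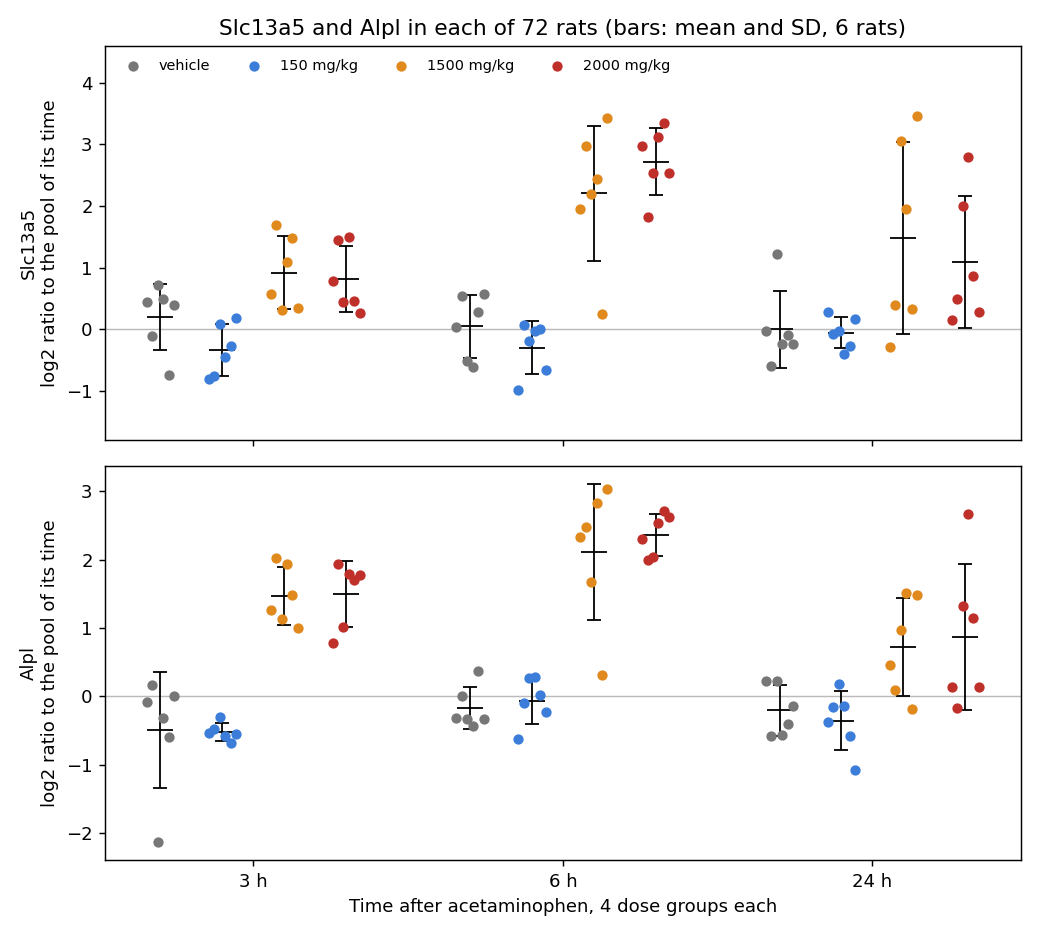
Log2 ratio of Slc13a5 (upper panel) and Alpl (lower panel) to the pool of the same time in every rat, by time and dose. Points are rats, and black bars are the mean and SD of 6 rats. Against the pool of its time, the group means of both genes are highest at 6 h and the toxic doses, Alpl is already raised in all toxic-dose rats at 3 h, and at 24 h the toxic-dose rats spread from near 0 to 3.46 for Slc13a5 and 2.66 for Alpl.

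At 3 h Alpl was already higher in all 12 rats of the toxic doses than in any vehicle rat, while Slc13a5 was not called at any dose. Alpl stood at 1.26, 2.02, 1.13, 1.93, 1.48 and 1.0 at 1500 mg/kg and at 0.78, 1.93, 1.01, 1.79, 1.70 and 1.77 at 2000 mg/kg. The vehicle rats stood at -0.08, 0.16, -2.14, -0.32, -0.59 and 0.01. Alpl rose by 1.96 ± 0.35 at 1500 mg/kg (3.90-fold, limma adjusted p = 4.59e-05) and by 1.99 ± 0.35 at 2000 mg/kg (3.97-fold, limma adjusted p = 2.11e-05). The exact two-sided permutation test over the rats of the compared groups gave p = 0.0022 for each, the smallest that 6 against 6 rats allow. The calls among all rows were 3.39% higher at 1500 mg/kg, and at 2000 mg/kg 4.92% higher and 4.1% lower.

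The vehicle rat at -2.14, rat 2698, read -4.11 on the array with its RNA in Cy3 and -0.17 on the other. Without that Cy3 array the Alpl rise at 3 h was 1.63 ± 0.32 at 1500 mg/kg (limma adjusted p = 0.000277) and 1.66 ± 0.32 at 2000 mg/kg (limma adjusted p = 0.000121).

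Slc13a5 at 3 h stood at 0.58, 1.69, 0.32, 1.09, 1.48 and 0.34 at 1500 mg/kg and at 0.78, 1.44, 0.45, 1.5, 0.46 and 0.27 at 2000 mg/kg. The vehicle rats stood at 0.45, -0.11, 0.72, 0.49, -0.75 and 0.40. In each toxic dose all 6 rats lay above the vehicle mean (0.20) and 3 of 6 above the highest vehicle rat, and the groups overlapped. The difference was 0.72 ± 0.44 at 1500 mg/kg (limma adjusted p = 0.434) and 0.62 ± 0.44 at 2000 mg/kg (limma adjusted p = 0.457), neither of which passed. The 2 arrays of a rat read Slc13a5 unevenly at 3 h, differing by more than 1 in 7 of 23 rats, against 2 of 24 for Alpl. The median absolute difference between the arrays was 0.40 for Slc13a5 and 0.27 for Alpl. Whether the 2 genes differed from each other at 3 h was not tested. At 150 mg/kg Slc13a5 differed from vehicle by -0.53 ± 0.44 (limma adjusted p = 1). There 1 of the 6 rats rests on a single array because the probe was blank on the other. Alpl at 150 mg/kg differed from vehicle by -0.03 ± 0.35 (limma adjusted p = 1). No row of the table was called at 150 mg/kg at 3 h (0% by limma, with 698 rows at an unadjusted p under 0.05).

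At 24 h both genes were still above vehicle on average, but unevenly between rats. Slc13a5 stood at -0.28, 0.39, 3.05, 1.95, 0.33 and 3.46 at 1500 mg/kg and at 0.15, 0.49, 2.01, 2.79, 0.86 and 0.27 at 2000 mg/kg. The vehicle rats stood between -0.60 and 1.21, with 5 of them at or below -0.03. Slc13a5 rose by 1.48 ± 0.44 at 1500 mg/kg (2.80-fold, limma adjusted p = 0.00891). The difference of 1.10 ± 0.44 at 2000 mg/kg (2.14-fold, limma adjusted p = 0.0592) did not pass.

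Alpl at 24 h stood at 0.45, 0.09, 0.97, 1.51, -0.18 and 1.49 at 1500 mg/kg, and at 0.13, -0.17, 1.32, 2.66, 1.15 and 0.13 at 2000 mg/kg. The vehicle rats stood between -0.58 and 0.23. Alpl rose by 0.93 ± 0.35 at 1500 mg/kg (1.90-fold, limma adjusted p = 0.0451) and by 1.08 ± 0.35 at 2000 mg/kg (2.11-fold, limma adjusted p = 0.0155). The groups overlapped at both doses, with 4 and 3 of 6 rats above the highest vehicle rat. Among all rows 10.2% were called higher at 1500 mg/kg and 11.8% at 2000 mg/kg, so a call at 24 h was common.

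The SE of these differences is shared over all 12 groups. With the compared groups alone it was 0.64 for Slc13a5 at 1500 mg/kg against 0.44, and for Alpl 0.31 at 1500 mg/kg and 0.43 at 2000 mg/kg against 0.35. In that fit no rise at 24 h passed (limma adjusted p = 0.177 for Slc13a5 at 1500 mg/kg, and 0.0867 and 0.115 for Alpl at 1500 and 2000 mg/kg). The exact permutation test, unadjusted, gave p = 0.0649 and 0.0519 for Slc13a5 and p = 0.0216 and 0.0346 for Alpl at 1500 and 2000 mg/kg. The 24 h calls also rested on single rats. For Slc13a5 at 1500 mg/kg, leaving out rat 9537 gave 1.09 (limma adjusted p = 0.0763) and leaving out rat 7075 gave 1.17 (0.0594). For Alpl at 2000 mg/kg, leaving out rat 8089 gave 0.72 (limma adjusted p = 0.124). For Alpl at 1500 mg/kg the call ended without any 1 of dosed rats 7075, 8194 and 9537 (0.88, 0.77 and 0.77) or of vehicle rats 1457, 5999, 7375 and 7393 (0.85, 0.85, 0.89 and 0.94), at limma adjusted p between 0.0598 and 0.144. For Slc13a5 at 2000 mg/kg the call came up without vehicle rat 2483 (1.34, limma adjusted p = 0.023) and without dosed rat 2015, 2197 or 9540 (1.28, 1.22 and 1.26).

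A set of 49 arrays shares 500 blank probes, and what the set stands for is not given in the sources used here. Within the 46 rats without it the 24 h differences at 1500 and 2000 mg/kg were 0.97 and 0.80 for Slc13a5 and 0.68 and 0.60 for Alpl, with no call. Within the 23 rats with it on both arrays they were 2.08 and 1.48 for Slc13a5 and 1.21 and 1.58 for Alpl, again with no call.

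At 150 mg/kg and 24 h the difference was -0.05 ± 0.44 for Slc13a5 and -0.15 ± 0.35 for Alpl (limma adjusted p = 1 for both), where no row of the table was called (0%, with 530 rows at an unadjusted p under 0.05). The 1500 and 2000 mg/kg rats were not told apart. At 3 h 2000 minus 1500 mg/kg was -0.10 ± 0.44 for Slc13a5 and 0.03 ± 0.35 for Alpl, and at 24 h it was -0.39 ± 0.44 and 0.15 ± 0.35 (limma adjusted p = 1 for all of them). Of all rows 0.0105% were called at 3 h and 0% at 24 h (846 rows at an unadjusted p under 0.05).

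**Figure D2:**
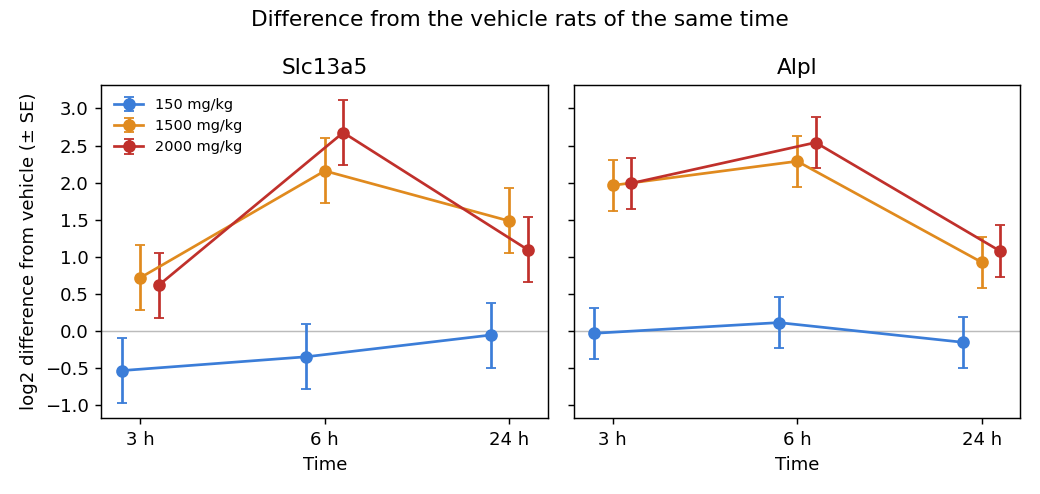
Log2 difference of each dose from the vehicle rats of the same time (points, ± SE from the fit to 72 rats) for Slc13a5 and Alpl at 3, 6 and 24 h. At the toxic doses Alpl is near 2 at 3 h, between 2.29 and 2.54 at 6 h and near 1 at 24 h, Slc13a5 peaks at 6 h, and 150 mg/kg stays within 0.54 of vehicle. The 6 h points chose the genes and carry no test.

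Whether the difference from vehicle changed between 3 h and 24 h was tested, since neither time chose the genes. For Alpl the change was -1.04 ± 0.49 at 1500 mg/kg (limma adjusted p = 0.173) and -0.91 ± 0.49 at 2000 mg/kg (limma adjusted p = 0.219). For Slc13a5 it was 0.77 ± 0.62 (limma adjusted p = 0.493) and 0.48 ± 0.62 (limma adjusted p = 0.681). None passed, where 11.9% and 15.7% of all rows were called in either direction at 1500 and 2000 mg/kg. With each rat left out in turn, the Alpl change ran from -1.19 to -0.71 at 1500 mg/kg. At 2000 mg/kg it ran from -1.27 to -0.58, and neither dose gained a call. The steps that involve 6 h are a description: from 3 h to 6 h the difference at 2000 mg/kg went up by 2.06 ± 0.62 for Slc13a5 and by 0.55 ± 0.49 for Alpl, and from 6 h to 24 h it changed by -1.58 ± 0.62 and -1.46 ± 0.49. Every Alpl step from 3 h includes the low Cy3 array of vehicle rat 2698, without which the 3 h rise was smaller, as given above.

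The order of the 12 group means, each relative to the pool of its time, differed between the genes from the third place on. Slc13a5 ran from 6 h 2000 mg/kg (2.72 ± 0.54, SD, n = 6) and 6 h 1500 mg/kg (2.21 ± 1.10) through 24 h 1500 mg/kg (1.48 ± 1.57), 24 h 2000 mg/kg (1.10 ± 1.07) and 3 h 1500 and 2000 mg/kg (0.92 ± 0.59 and 0.82 ± 0.53). Alpl ran from 6 h 2000 mg/kg (2.36 ± 0.30, SD, n = 6) and 6 h 1500 mg/kg (2.11 ± 1.0) through 3 h 2000 and 1500 mg/kg (1.5 ± 0.48 and 1.47 ± 0.42) to 24 h 2000 mg/kg (0.87 ± 1.07) and 24 h 1500 mg/kg (0.72 ± 0.71). The 6 vehicle and 150 mg/kg groups held the last 6 places for both genes, between -0.33 and 0.20 for Slc13a5 and between -0.52 and -0.06 for Alpl. Among neighbours in each order, the 1 gap wider than the larger of the 2 SDs was that between the toxic-dose groups and the rest (0.62 for Slc13a5 and 0.78 for Alpl). All other neighbours lay within their spread.

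Rats high for one gene in their group tended to be high for the other. After removal of the 12 group means, Pearson r was 0.64 and Spearman rho 0.64 over 72 rats, and r was 0.57 without the 2 rats farthest from the median of Slc13a5. These values include the 6 h rats and are given as a description with no test. At 3 h r was 0.15 and rho 0.40 over 24 rats (two-sided permutation within groups, 100000 resamples, p = 0.52 and 0.0788). At 24 h r was 0.74 and rho 0.78 over 24 rats (permutation p = 0.00056 and 0.00032, or 0.000933 and 0.0008 adjusted over the 5 relations computed). The relation did not pass at 3 h, and whether r differed between times was not tested. The 3 h rats include vehicle rat 2698, whose Alpl of -2.14 rests on a Cy3 array that read -4.11. The 3 h relation without that rat was not computed, so the low r at 3 h may lean on it.

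At 24 h r was 0.63 without the 2 farthest rats (permutation p = 0.00893). At 6 h r was 0.84 and rho 0.67 over 24 rats, a description with no test, and r was 0.68 without the 2 farthest. Over the 12 rats of the toxic doses at 6 h r was 0.89 and rho 0.70, and r was 0.57 without the 2 farthest, so the value leans on those rats. The 2 genes of a rat come from the same arrays. With Slc13a5 taken from the arrays with the rat in Cy5 and Alpl from those with the rat in Cy3, so that the values share no array, r was 0.44 over 72 rats. The reverse choice gave 0.72 over 71 rats. The value of 0.44 includes the -4.11 that 3 h vehicle rat 2698 read for Alpl with its RNA in Cy3. Among rats without the shared blank probes r was 0.68 (46 rats), and among those with them on both arrays 0.77 (23 rats).

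**Figure D3:**
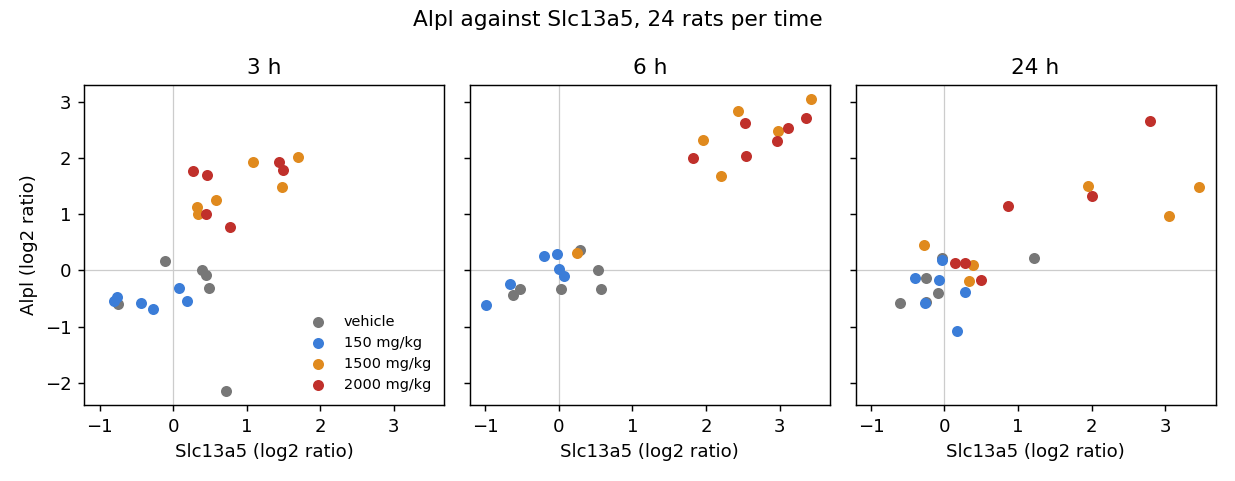
Alpl against Slc13a5 (log2 ratios to the pool) in 24 rats at each time, coloured by dose. At 6 h 11 of the 12 toxic-dose rats lie apart at the upper right, and at 24 h the toxic-dose rats spread along a line from near 0 to the upper right.

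The rats that stood high at 24 h were largely, but not wholly, the same for both genes. Of the 12 toxic-dose rats, 7075, 8194 and 9537 at 1500 mg/kg and 5889 and 8089 at 2000 mg/kg held the 5 highest Slc13a5 values (1.95 to 3.46), and their Alpl values ran from 0.97 to 2.66. Rat 9388 stood at 0.86 and 1.15, so its Alpl lay above that of rat 7075. The other 6 stood between -0.28 and 0.49 for Slc13a5 and between -0.18 and 0.45 for Alpl.

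Markers of neutrophils, the first white cells to enter injured tissue, were uneven in the same rats. The mean of the 6 neutrophil markers measured (of 14 listed) was 1.62 in rat 7075, 1.75 in rat 9537, 2.02 in rat 5889, 1.16 in rat 8089 and 0.47 in rat 8194. In the other 7 toxic-dose rats of 24 h it lay between -0.25 and -0.02, rat 9388 included, and in the vehicle rats between -0.52 and 0.09. At 24 h and 2000 mg/kg 2 of the 6 markers were called, both higher, S100a9 (a calcium-binding protein, 1.64 ± 0.54, limma adjusted p = 0.0186) and Lcn2 (1.09 ± 0.40, limma adjusted p = 0.0355), where 11.8% of all rows were called higher. Both calls were lost with the compared groups alone (limma adjusted p = 0.203 and 0.338). Lcn2 is also made by injured hepatocytes. At 24 h and 1500 mg/kg 4 of the 6 were called, all higher (S100a8, S100a9, Mmp8 and Lcn2), where 10.2% of all rows were called higher. With the compared groups alone none of the 4 was called. Itgam and Cxcr2 were called at neither dose (0.11 and -0.12 at 1500 mg/kg, 0.20 and -0.14 at 2000 mg/kg). S100a8 and Mmp8 were not called at 2000 mg/kg (0.37 and 0.57). The median difference over the 6 markers was 0.80 at 1500 mg/kg and 0.47 at 2000 mg/kg, against -0.01 over all rows at each dose.

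The mean of 9 cholangiocyte markers (of 13 listed) was also high in 3 of those rats, at 1.0 in rat 5889, 0.36 in rat 9537 and 0.34 in rat 7075. In the other 9 toxic-dose rats of 24 h it lay between -0.27 and -0.05, rats 8089 and 8194 included, and in the vehicle rats between -0.07 and 0.19. The part of either cell type in the 24 h values of Slc13a5 and Alpl was not tested.

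At 6 h, where both genes stood highest, none of the 6 neutrophil markers was called by limma at 2000 mg/kg, and none had an unadjusted p under 0.05. Their mean per rat lay between -0.50 and 0.06 at 1500 mg/kg and between -0.19 and -0.04 at 2000 mg/kg, against -0.38 to -0.10 in the vehicle rats. In whole liver, a change in the number of cells of a type and a change in RNA per cell cannot be told apart. The values are ratios to a liver pool, so they show no absolute level of any marker, the hepatocyte markers included.

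**Figure D4:**
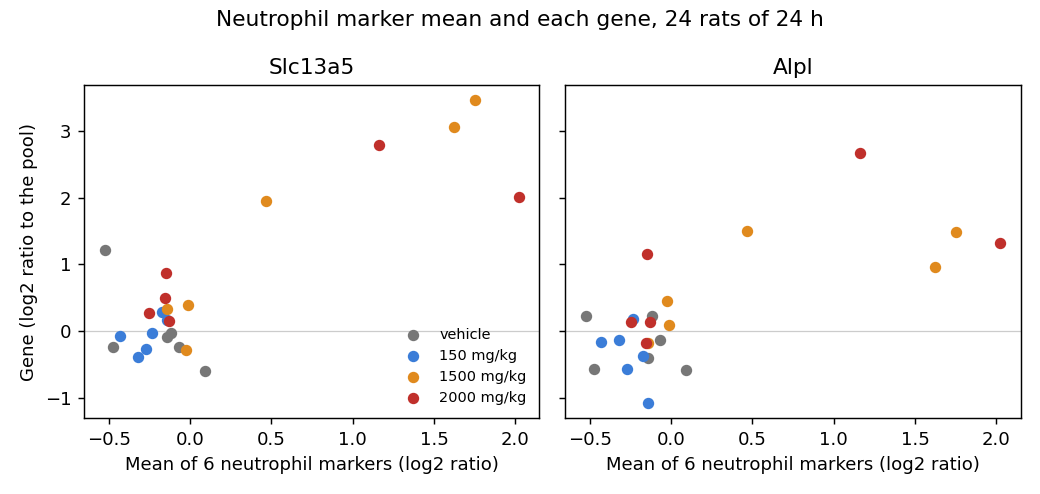
Slc13a5 (left) and Alpl (right) against the mean of 6 neutrophil markers, all as log2 ratios to the pool, in the 24 rats of 24 h, coloured by dose. The 5 toxic-dose rats with a marker mean of 0.47 or more hold the 5 highest Slc13a5 values, and 1 rat at -0.15 has an Alpl of 1.15.

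Markers of the other liver cells were counted in the same fit, at 2000 mg/kg. Of 9 cholangiocyte markers measured, 0 were called higher and 2 lower at 6 h and 2000 mg/kg, Cldn7 (a tight junction protein, -0.48 ± 0.15, limma adjusted p = 0.0273) and Aqp1 (a water channel, -0.30 ± 0.08, limma adjusted p = 0.00976), where 5.31% of all rows were called higher and 5.84% lower. The list's median was -0.13 against 0 over all rows. At 24 h and 2000 mg/kg the list's median was 0.08 against -0.01 over all rows, and 1 marker was called, Cldn7, lower. For this and the other 24 h counts of these markers, 12.5% of all rows were called lower and 11.8% higher. Of 12 hepatocyte markers, 1 was called higher at 6 h, the tryptophan dioxygenase Tdo2 (1.24 ± 0.18, limma adjusted p = 9.5e-07), and none at 24 h by limma at 2000 mg/kg (2 had an unadjusted p under 0.05). Macrophage markers (9 measured) had no call by limma at 6 h (1 had an unadjusted p under 0.05) and 4 lower at 24 h, among them the Kupffer cell lectin Clec4f (-0.91 ± 0.14, limma adjusted p = 4.3e-07). Endothelial markers (8 measured) had 1 higher call at 6 h, the hyaluronan receptor Lyve1 (0.30 ± 0.10, limma adjusted p = 0.0344), and 4 lower at 24 h, and stellate cell markers (9 measured) had 4 lower calls at each time, among them the growth factor receptor Pdgfrb (-1.09 ± 0.16 at 6 h and -0.93 ± 0.16 at 24 h).

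Genes that supply citrate or use it for lipid synthesis were called mostly lower. Of 13 measured genes of citrate supply and lipid synthesis, 5 were called lower and 0 higher at 6 h and 2000 mg/kg, and 8 lower and 1 higher at 24 h, against 5.84% lower and 5.31% higher at 6 h and 12.5% lower and 11.8% higher at 24 h among all rows. Acly, ATP citrate lyase, fell by 1.33 ± 0.26 at 6 h (limma adjusted p = 0.000168) and by 1.97 ± 0.26 at 24 h (limma adjusted p = 2.1e-08). Fasn, fatty acid synthase, fell by 1.19 ± 0.33 and by 1.85 ± 0.33 at these times. Acacb, an acetyl-CoA carboxylase of mitochondria, fell by 0.77 ± 0.21 and 1.15 ± 0.21, Thrsp, a lipogenic nuclear protein, by 0.73 ± 0.23 and 1.30 ± 0.23, and Slc25a1, the mitochondrial citrate carrier, by 0.55 ± 0.14 and 0.48 ± 0.14. The 1 gene called higher at 24 h was malic enzyme Me1 (0.80). The median over the list was 0.07 at 3 h, -0.43 at 6 h and -0.41 at 24 h, against 0, 0 and -0.01 over all rows. At 3 h none of the 13 was called by limma and none had an unadjusted p under 0.05. Within the 46 rats without the shared blank probes the count at 6 h was 0, with Acly at -1.30 (limma adjusted p = 0.055).

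The transporter's relatives were called lower or not called. Counts at 2000 mg/kg cover 6 other genes of the Slc13 family and carriers of di- and tricarboxylates. At 6 h and at 24 h, 2 of the 6 were called lower and 0 higher. Over all rows 5.84% were called lower and 5.31% higher at 6 h, and 12.5% and 11.8% at 24 h. Slc13a2, the dicarboxylate transporter of kidney and gut, fell by 0.35 ± 0.10 at 6 h and by 0.71 ± 0.10 at 24 h. Slc13a3, a high-affinity dicarboxylate transporter, fell by 1.11 ± 0.17 at 24 h, and Slc13a4, a sulfate transporter, by 0.81 ± 0.27 at 6 h. The list's median was -0.23 at 6 h and -0.32 at 24 h. At 1500 mg/kg 1 of the 6 was called lower at 6 h and 3 at 24 h, with 0 higher. Of all 18978 rows at that dose, 613 were called lower and 692 higher at 6 h, and 2157 and 1927 at 24 h.

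Next counted, at 2000 mg/kg, were 16 measured phosphatase relatives and genes of phosphate, pyrophosphate and vitamin B6 handling. Of these, 2 were called higher and 4 lower at 6 h, and 2 higher and 9 lower at 24 h, with medians of -0.10 and -0.35. Over all rows 5.31% were called higher and 5.84% lower at 6 h, and 11.8% and 12.5% at 24 h. The higher count at 24 h was thus near the share of all rows. Phospho1, a phosphatase of phosphocholine known from bone mineralisation, rose at all times, by 0.71 ± 0.19 at 3 h, 0.81 ± 0.19 at 6 h and 0.54 ± 0.19 at 24 h. Ectoenzymes that make pyrophosphate or adenosine were among those that fell. Nt5e, the 5'-nucleotidase CD73, fell by 0.82 ± 0.15 at 6 h and 1.02 ± 0.15 at 24 h, Enpp3 by 0.55 ± 0.17 and 0.98 ± 0.17, and Enpp1 by 0.70 ± 0.11 at 24 h. The lysosomal acid phosphatase Acp2 fell by 0.53 ± 0.14 and 0.54 ± 0.14.

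**Figure D5:**
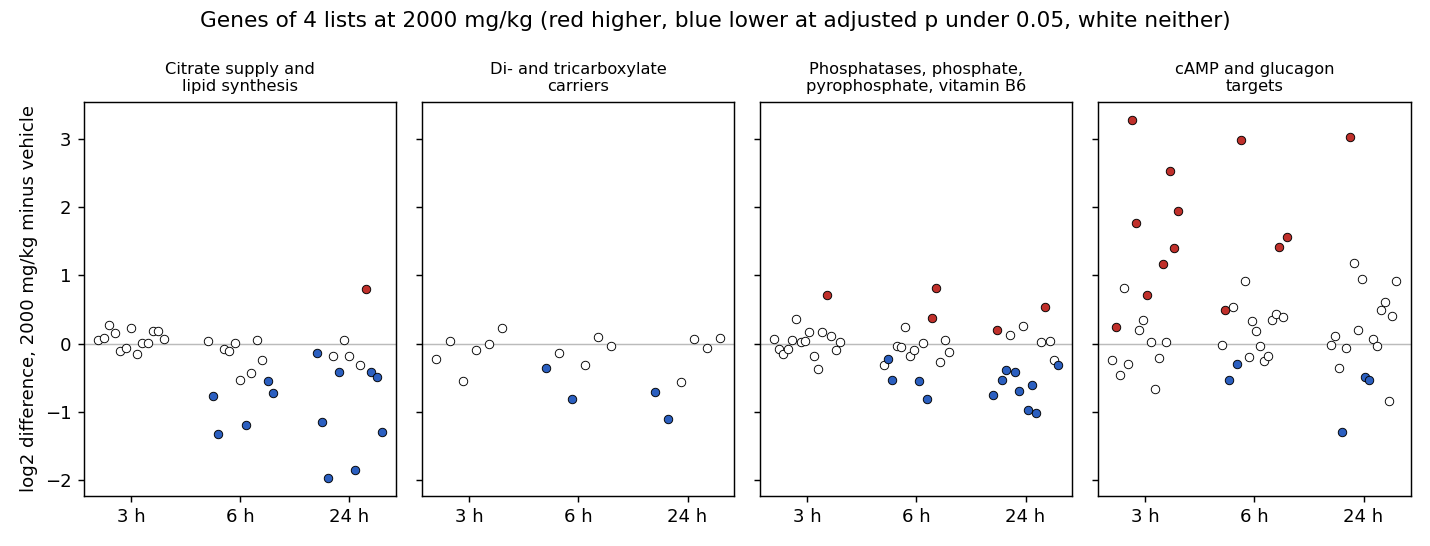
Log2 difference of 2000 mg/kg from vehicle at 3, 6 and 24 h for the genes of 4 lists, each point a gene in alphabetical order from left to right within a time. Red points are higher and blue points lower at an adjusted p under 0.05. Of the genes of citrate supply and lipid synthesis 8 of 13 were called lower at 24 h, against 12.5% of all rows. Of the cAMP and glucagon targets 8 of 18 were called higher at 3 h, against 4.92% of all rows.

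Genes known to respond to signals that act on Slc13a5 were counted from the same fit, at 2000 mg/kg. Of 18 cAMP and glucagon targets, 8 were called higher and 0 lower at 3 h, 4 higher and 2 lower at 6 h, and 1 higher and 3 lower at 24 h, with medians of 0.29, 0.34 and 0.09. Among all rows 4.92%, 5.31% and 11.8% were called higher at these times, and 4.1%, 5.84% and 12.5% lower. Igfbp1, which binds insulin-like growth factors, was higher by 3.28 ± 0.52, 2.99 ± 0.52 and 3.03 ± 0.52 at 3, 6 and 24 h, and Tat, tyrosine aminotransferase, by 1.94 ± 0.40 at 3 h and 1.57 ± 0.40 at 6 h. The gluconeogenic phosphatase G6pc1 fell by 1.30 ± 0.38 at 24 h. Several of these genes also answer to glucocorticoids. Over the alternative settings the higher count of this list ran from 2 to 9 at 3 h and from 1 to 6 at 6 h. For the interleukin-6 and STAT3 list, next, it ran from 0 to 5 at 6 h and from 1 to 6 at 24 h. Of 12 targets of interleukin-6 and STAT3, 3 were called higher at 6 h and 5 higher and 1 lower at 24 h, led by the acute-phase protein A2m (2.20 ± 0.53 and 3.88 ± 0.53), while Il6r, the interleukin-6 receptor, rose by 1.53 ± 0.17 at 3 h and 0.84 ± 0.17 at 6 h.

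Targets of 3 groups of receptors were counted at 2000 mg/kg. There 4.92%, 5.31% and 11.8% of all rows were called higher at 3, 6 and 24 h, and 4.1%, 5.84% and 12.5% lower. Of 6 targets of the aryl hydrocarbon receptor, 0 were called by limma at 3 h (1 had an unadjusted p under 0.05). Nqo1 alone was called at 6 h (0.47 ± 0.16, limma adjusted p = 0.0469), and at 24 h Nqo1 was higher (2.16 ± 0.16) and Cyp1a2 lower (-1.16 ± 0.29). Nqo1 also belongs to the oxidative stress response. Of 10 targets of the xenobiotic receptors PXR and CAR, 2 were called higher and 0 lower at 3 h. At 6 h 2 were called higher and 2 lower, and at 24 h 3 higher and 2 lower. Cyp3a2, a drug-metabolising cytochrome P450, fell by 2.76 ± 0.37 at 24 h. Por, the electron donor of cytochromes P450, rose by 1.38 ± 0.18, 1.34 ± 0.18 and 1.05 ± 0.18 at 3, 6 and 24 h, and the efflux pump Abcb1a fell by 1.36 ± 0.35 at 6 h and rose by 2.75 ± 0.35 at 24 h. Retinoid targets (11 measured) were listed because retinoids are known to raise Alpl in cultured cells. Of them, 1 was called higher and 1 lower at 3 h, 1 higher and 3 lower at 6 h, and 4 lower at 24 h. Cyp26a1, which breaks down retinoic acid, rose by 1.11 ± 0.14 at 3 h and 0.98 ± 0.14 at 6 h.

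Genes of bile acid transport and the response to cholestasis (12 measured) were also counted at 2000 mg/kg. Of the 12, 1 was called higher and 3 lower at 6 h, and 2 higher and 7 lower at 24 h, with medians of -0.14 and -0.59. Over all rows 5.31% were called higher and 5.84% lower at 6 h, and 11.8% and 12.5% at 24 h. Abcc3, an export pump of the sinusoidal membrane, rose by 0.74 ± 0.19, 1.12 ± 0.19 and 0.74 ± 0.19 at the 3 times, and Abcc4, another, by 1.57 ± 0.21 at 24 h. Abcb11, the bile salt export pump, fell by 0.63 ± 0.09 at 24 h, and Nr0b2, the repressor SHP, by 1.66 ± 0.45 at 6 h and 2.24 ± 0.45 at 24 h. Nt5e and the aminopeptidase Anpep, ectoenzymes of the hepatocyte canalicular membrane as Alpl is, fell at 24 h, Anpep by 0.89 ± 0.12.

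The genes whose 12 group means were most like those of each gene were ranked among 9652 genes, as a description without a test, since all groups entered the ranking. For Slc13a5 they were Neto2 (r = 0.971, a partner of kainate receptors), Nnmt (0.971, nicotinamide N-methyltransferase), Wdr54 (0.968), Fam220a (0.963) and Ppm1l (0.961, a protein phosphatase). Their differences at 2000 mg/kg lay between 0.03 and 0.50 at 3 h, between 0.50 and 1.20 at 6 h and between 0.18 and 0.65 at 24 h, all smaller than that of Slc13a5 itself. For Alpl they were Tmem150c (r = 0.987), Retreg1 (0.981, a receptor for turnover of the endoplasmic reticulum), Fkbp5 (0.98, a partner of the glucocorticoid receptor), Dbt (0.974, of branched-chain amino acid breakdown) and Ces2c (0.974, a carboxylesterase). Retreg1 had differences near those of Alpl, 1.99 ± 0.34 at 3 h, 2.45 ± 0.34 at 6 h and 1.02 ± 0.34 at 24 h. Fkbp5 stood at 1.64 ± 0.29, 1.80 ± 0.29 and 0.94 ± 0.29. Alpl was in place 42 for Slc13a5 (r = 0.911), and Slc13a5 in place 73 for Alpl.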

How the data were processed

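Liver RNA of 72 rats was measured on 144 two-colour arrays, 2 per rat, against a pool of vehicle RNA of the same time, per the labels. The authors deposited processed values, taken here as log10 ratios of Cy5 over Cy3. Neither the log base nor the direction is stated, and how background and dyes were corrected is not given in the sources used here. On the log10 scale the median of each deposited array lay between 0 and 0.000258. Time came from the labels and dose from the authors' deposited key by rat number. Values were converted to log2, turned in sign where the rat was in Cy3, and averaged over the 2 arrays, so that p-values are over rats. The 2 arrays of a rat correlated above 0 in 63 of 72 rats after removal of the dye effect (median 0.421). Probes of 1 symbol were averaged (2266 genes had several). The sources do not name an RNA extraction or hybridisation batch.

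Contrasts of the 12 group means were fitted to all rats with limma 3.58.1 (R 4.3.3) and adjusted by Benjamini-Hochberg over 18978 rows at 0.05. All adjusted p-values are from this fit unless another setting is named. Exact permutation tests and permutations of correlations used SciPy 1.17.1, pandas 2.3.3, NumPy 2.4.6 and Python 3.11.15. The limma fit of 1 contrast, 2000 mg/kg minus vehicle at 24 h, was tried on simulated independent normal values. The members, the 15 gene lists (215 entries, 157 measured) and the tests were chosen with earlier results of these data known, so counts over lists are descriptions. The text names, from each list, genes among the 3 with the smallest unadjusted p at 6 h and at 24 h (2000 mg/kg), the 5 genes most like each member, and genes used for the direction. Me1 and S100a8 were named after their values were seen. Alternatives were either dye orientation alone, array centring, complete rows, exact zeros as missing, the compared groups alone, a dye term with each rat's arrays as a random block, quality weights, a variance trend, a fold change of at least 1.5, the shared blank probes as a covariate or a split, and each rat left out. Added after seeing the data were leaving out 12 rats whose arrays agreed poorly, leaving out 1 array of 1 vehicle rat, unadjusted exact permutation tests, and a correlation without the 24 h rats.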

Additional observations from a re-analysis of the deposited data

Results flagged for a closer look

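In each of 12 groups of 6 rats both genes were examined for a rat far from the others, 24 sets of values in all, of which chance alone flags about 5%. A vehicle rat was found for each gene, in different groups. Rat 2698 at 3 h had an Alpl of -2.14 (log2 ratio to the pool), and its gap to the nearest rat was 0.673 of the group's range. Its 2 arrays read -4.11 and -0.17 for Alpl. Rat 2483 at 24 h had a Slc13a5 of 1.21, and its gap was 0.685 of the range. It was also among the highest vehicle rats for Alpl at 24 h (0.23).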

How the results depend on the processing

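The Alpl rises at 3 h kept their direction and passed under every alternative that gave a value, each rat left out included (1.63 to 2.09 at 1500 mg/kg and 1.66 to 2.13 at 2000 mg/kg). The 24 h rises kept their direction and not their calls. For Slc13a5 at 1500 mg/kg the value was 1.48 with the compared groups alone and in the exact permutation test, 2.08 in rats with the shared blank probes on both arrays and 0.97 in rats without them, none of which passed. For Alpl at 1500 mg/kg the call was lost with the Cy3 arrays alone (0.92), the compared groups alone (0.93), rats with the shared blank probes (1.21) or without them (0.68), those probes as a covariate (0.90) and without the 12 rats of poor array agreement (1.01). For Alpl at 2000 mg/kg it was lost with the Cy3 arrays alone (1.05), the compared groups alone (1.08), and rats with (1.58) or without (0.60) the shared blank probes. Calls came up for Slc13a5 at 24 h and 2000 mg/kg with the rat as a random block (1.10) and for the Alpl change from 3 h to 24 h at 2000 mg/kg with quality weights (-1.20). The cause was not tested.

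Signs turned for differences near 0 that passed under no setting: Alpl at 150 mg/kg, 24 h without the shared blank probes (0.051), and at 3 h with the Cy3 arrays alone (0.23) or without the rats of poor agreement (0.066); Alpl 2000 minus 1500 mg/kg at 24 h with quality weights (-0.15) or without the shared blank probes (-0.077), and at 3 h without those probes (-0.23) or with them as a covariate (-0.015); Slc13a5 at 150 mg/kg and 24 h with them on both arrays (0.12); Slc13a5 2000 minus 1500 mg/kg at 3 h with the Cy5 arrays alone (0.10) or without the rats of poor agreement (0.15); and the Slc13a5 change from 3 h to 24 h at 2000 mg/kg with quality weights (-0.094).

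With each rat left out in turn, the 24 h values ran from 1.09 to 1.84 for Slc13a5 at 1500 mg/kg, from 0.76 to 1.34 at 2000 mg/kg, and from 0.77 to 1.11 and 0.72 to 1.29 for Alpl. At 150 mg/kg they ran from -0.17 to 0.19 for Slc13a5 at 24 h and from -0.36 to 0.10 for Alpl at 3 h. The 2000 minus 1500 mg/kg values ran from -0.24 to 0.054 and -0.74 to 0.0079 for Slc13a5 at 3 and 24 h, and from -0.067 to 0.17 and -0.21 to 0.36 for Alpl. Of 1350 list counts recomputed, 1157 stayed within 1.5 times, 130 became smaller and 63 larger. At 6 h and 2000 mg/kg the lower counts of several lists fell to 0 under some setting. They ran from 0 to 3 for the carriers, 0 to 5 for the phosphatase list, 0 to 4 for the retinoid targets and 0 to 5 for the bile acid list. Of 3124 recomputed values of named list genes and most alike genes that were called, 298 lost the call and 0 reversed. Among complete rows alone Slc13a5 gave no value. The comparison of 3 h groups could not be made within rats that have the shared blank probes on both arrays. No paired analysis was possible because each rat was killed at 1 time and dose, and rat numbers are not shared between groups. Precision is set by the 6 rats in a group.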
